A study of Mus musculus with 8 samples.

Results

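The 52 genes described here are the splicing factor and hnRNP genes of mouse bone marrow progenitors, taken by name from 19879 gene names in the 8 count files: SR proteins (Srsf and a number), heterogeneous nuclear ribonucleoproteins (Hnrnp), subunits of SF3A and SF3B (Sf3a or Sf3b and a number) and proteins of the small nuclear ribonucleoprotein particles (Snrp), without pseudogene names. The rule used names and no measured value, but it was set with earlier results of these data known. By role they were 11 SR proteins, 20 hnRNPs, 9 SF3A and SF3B subunits, 8 proteins of the Sm core (Snrpn among them) and 4 particle proteins of U1 and U2. RNA of sorted single cells was measured with CEL-Seq2, which tags the 3′ end of each captured transcript with a molecular identifier. The 4 groups, each of 2 libraries, were Mof -/+ plate2, wild type plate2, Mof -/+ HSC and wild type HSC. Mof -/+ mice carry 1 functional copy of Mof (Kat8), a lysine acetyltransferase of histone tails. The design text lists 8 sort gates, from haematopoietic stem cells (HSC) to erythroid, granulocyte-monocyte and megakaryocyte progenitors. Which gate a plate2 well came from is not in the labels. All groups were labelled as haematopoietic progenitor cells of bone marrow. Age, sex and strain are not in the labels. Whether the 2 libraries of a group come from different mice is not stated either, and p-values therefore reflect library-to-library spread that could be purely technical.

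Introns are removed by the spliceosome, which is built from small nuclear RNAs and their proteins. U1 marks the 5′ splice site and U2 the branch point, the Sm proteins form a ring on most of these RNAs, and SF3A and SF3B hold U2 on the branch point. SR proteins bind exons and mostly promote their use, whereas hnRNPs coat the nascent transcript, often oppose SR proteins and take part in RNA export, stability and translation. In human blood cells SF3B1 and SRSF2 are among the genes most often mutated in myelodysplastic syndromes.

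Promoter windows of members that moved together are shown first. Of the 52 members, 46 had a RefSeq window of 250 bases before to 50 bases after the gene start (GRCm38.p6), 63 windows in all. Shown are the 3 members of smallest p among 5 that were higher in plate2 libraries of both genotypes and had a single window, and Hnrnpc, an abundant member that was not. Each line runs 5′ to 3′ on the gene's strand. Capitals mark matches on either strand to 5 motifs, which are CCAAT, the ETS core CCGGAAG, the E-box CACGTG, the GC box GGGCGG and the TATA box TATAAA. Overlapping matches run together.
Snrpf, chr10:93589609-93589908, minus strand: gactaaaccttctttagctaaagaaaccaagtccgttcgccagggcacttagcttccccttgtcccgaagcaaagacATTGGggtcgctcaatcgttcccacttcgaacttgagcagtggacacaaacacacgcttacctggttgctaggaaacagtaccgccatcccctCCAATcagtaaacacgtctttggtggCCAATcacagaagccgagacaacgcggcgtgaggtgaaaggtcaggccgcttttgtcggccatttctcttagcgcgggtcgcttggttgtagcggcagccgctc
Hnrnpab, chr11:51606832-51607131, minus strand: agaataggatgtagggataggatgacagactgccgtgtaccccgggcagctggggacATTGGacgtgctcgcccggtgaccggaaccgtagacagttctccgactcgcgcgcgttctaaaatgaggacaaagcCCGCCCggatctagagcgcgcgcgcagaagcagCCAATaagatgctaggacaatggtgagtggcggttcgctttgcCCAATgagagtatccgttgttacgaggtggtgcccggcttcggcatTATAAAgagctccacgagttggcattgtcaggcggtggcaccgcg
Hnrnpa3, chr2:75659009-75659308, plus strand: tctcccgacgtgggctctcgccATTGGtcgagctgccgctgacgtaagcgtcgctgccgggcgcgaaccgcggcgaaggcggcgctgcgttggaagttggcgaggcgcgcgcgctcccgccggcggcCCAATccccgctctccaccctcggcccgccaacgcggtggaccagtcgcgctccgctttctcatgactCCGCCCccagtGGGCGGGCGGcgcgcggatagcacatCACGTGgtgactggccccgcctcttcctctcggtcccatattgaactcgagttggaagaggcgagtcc
Hnrnpc, chr14:52103972-52104271, minus strand: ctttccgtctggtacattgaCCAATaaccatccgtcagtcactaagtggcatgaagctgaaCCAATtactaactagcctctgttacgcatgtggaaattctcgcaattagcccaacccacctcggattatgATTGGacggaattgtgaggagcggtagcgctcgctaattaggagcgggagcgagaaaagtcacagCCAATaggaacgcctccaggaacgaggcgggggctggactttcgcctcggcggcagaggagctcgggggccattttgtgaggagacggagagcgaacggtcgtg
CCAAT was found 3 times for Snrpf, 3 times for Hnrnpab, 2 times for Hnrnpa3 and 4 times for Hnrnpc, so the count of this motif did not set Hnrnpc apart. Hnrnpa3 also held 3 GC boxes and 1 E-box, and Hnrnpab held 1 GC box and 1 TATA box. Over the members' 63 windows, CCAAT was in 44.4% against 37.4% of all 32851 RefSeq windows. The ETS core was in 33.3% against 8.86%, the GC box in 68.3% against 35.7%, the E-box in 11.1% against 7.15% and the TATA box in 11.1% against 13.6%. Median GC content was 61% in the members' windows and 52.7% in all windows, and the part of base composition in these shares was not tested. A match is a string of letters and was not tested as a binding site.

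Kept wells (at least 1000 transcripts) numbered 436 of 1536 barcodes, 45 to 65 per plate2 library and 46 to 68 per HSC library. Their summed transcripts ran from 424794 to 734550 per plate2 library and from 99312 to 244299 per HSC library, so members are counted less precisely in HSC libraries, least so in wild type. Median transcripts per well were 8082 to 12530 in plate2 and 1567 to 2979 in HSC libraries, and the median of spike-in molecules per kept well was 10.5 to 18.0 in plate2 and 130 to 304 in HSC libraries. The deepest well alone held 13.8% and 17.5% of the wild type HSC libraries. Up to 43 kept barcodes had the same number in a pair of libraries. Kat8 had 9 and 12 transcripts in Mof -/+ plate2 against 10 and 4 in wild type plate2 libraries, and 1 and 2 in HSC libraries of either genotype, too few to check the genotype labels. Stem cell markers (12 of 12 measured, Hlf and Mecom among them) summed to 633 to 1152 CPM (transcripts scaled to the same total per library) in plate2 and 3542 to 4745 CPM in HSC libraries. Neutrophil progenitor markers summed to 644 to 4741 CPM in plate2 and 504 to 713 CPM in HSC libraries, where Ctsg and Ms4a3 were at 0. In wild type plate2 library 2, Ms4a3 was also at 0, Ctsg at 7.06 CPM and Mpo at 16.5 CPM. In wild type plate2 library 1 they stood at 45.0, 294 and 991 CPM. Gfi1 of the same list was higher in HSC libraries, at 24.6 to 40.3 CPM against 4.71 to 20.4 CPM in plate2.

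The members together made up a larger share of transcripts in plate2 than in HSC libraries, and the difference lay mostly in hnRNPs and the Sm core. Their summed share was 1.29% and 1.41% in Mof -/+ plate2, 1.20% and 1.13% in wild type plate2, 1.05% and 0.98% in Mof -/+ HSC, and 0.88% and 0.91% in wild type HSC libraries. Plate2 and HSC libraries did not overlap. hnRNPs made up 0.612% to 0.760% of plate2 and 0.416% to 0.525% of HSC transcripts. The Sm core made up 0.125% to 0.191% of plate2 and 0.0761% to 0.0970% of HSC transcripts. SR proteins lay close together, at 0.238% to 0.271% in plate2 and 0.202% to 0.236% in HSC libraries. SF3A and SF3B subunits summed to 0.128% to 0.149% in plate2 and 0.140% to 0.177% in HSC libraries, with plate2 below HSC within each genotype. Much of that sum is Sf3b1, and the other 8 subunits were at 0.0990% and 0.106% in Mof -/+ plate2 against 0.119% and 0.0855% in Mof -/+ HSC libraries, which overlapped, and at 0.0921% and 0.0909% in wild type plate2 against 0.0957% and 0.0980% in wild type HSC libraries. With predicted gene models (Gm and a number) left out of the total, all 9 were at 0.156% and 0.168% in wild type plate2 against 0.172% and 0.151% in wild type HSC libraries, which overlapped. The U1 and U2 proteins were at 0.0231% to 0.0422% in plate2 and 0.0058% to 0.0232% in HSC libraries, which overlapped in wild type. With each well thinned to 1000 transcripts, the share of all members was 1.11% and 1.23% in Mof -/+ plate2, 1.08% and 1.01% in wild type plate2, 0.98% and 1.01% in Mof -/+ HSC and 0.87% and 0.77% in wild type HSC libraries, so plate2 and HSC overlapped across but not within genotypes.

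**Figure D1:**
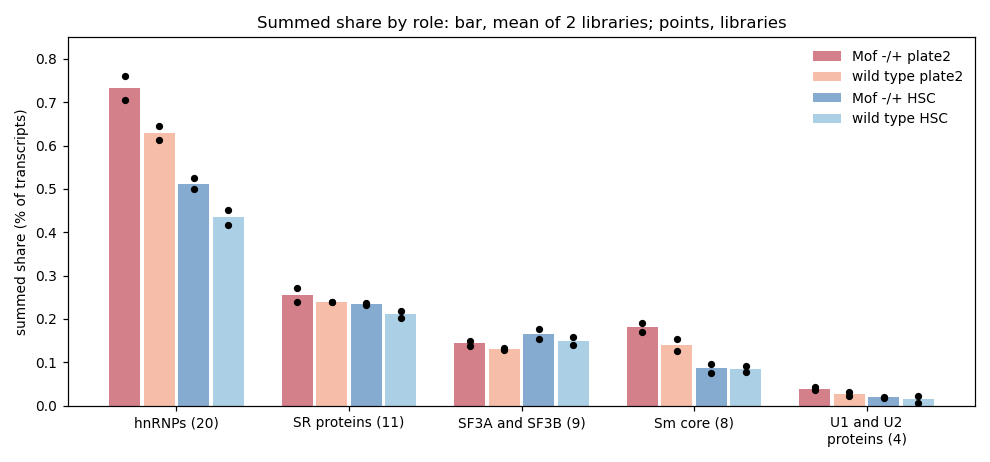
Summed share of transcripts (y axis, %) of the members of each role, with the number of members in brackets. Bars are the mean of 2 libraries and points the libraries; hnRNPs and the Sm core stand higher in plate2 than in HSC libraries of both genotypes. The lower sum of SF3A and SF3B subunits in plate2 rests largely on Sf3b1, and in wild type the libraries overlap with predicted gene models left out of the total.

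Plate2 libraries were compared with HSC libraries within each genotype, which sets progenitors of mixed or unstated gates against sorted stem cells. Most of the members that passed the test were hnRNP and Sm genes, and all that passed were higher in plate2. Of 49 members with enough counts (Srsf4, Srsf12 and Snrpn had 8, 1 and 5 transcripts in all and were not tested), 16 rose in Mof -/+ at an adjusted p under 0.05 (edgeR's quasi-likelihood test, Benjamini-Hochberg over 6690 genes), where the background was 11.9% of all genes higher and 10.3% lower. In wild type 12 of 49 rose, where the background was 9.64% higher and 8.13% lower. The median log2 fold change was 0.56 over the members and 0.04 over all genes in Mof -/+, and 0.78 and 0.08 in wild type. Members whose libraries did not overlap with plate2 above numbered 27 in Mof -/+ (27.2% of all genes) and 25 in wild type (27%), and with plate2 below 3 (36.3%) and 10 (32.5%). Rises were seen in 8 members in both genotypes, which is 50% of those in Mof -/+ and 66.7% of those in wild type: Hnrnpa2b1, Hnrnpa3, Hnrnpab, Hnrnpf, Hnrnpk, Hnrnpl, Snrpd1 and Snrpf. The share of all genes that rose in both genotypes was not counted, so this overlap has no background to stand beside. Scaled by library size alone, which moved the median of all genes to -0.16 in both genotypes, 12 rose in Mof -/+, and in wild type 8 rose and 1 (Hnrnpc) fell. Left without 1 library, the number that rose in Mof -/+ was 3 without plate2 library 2, 10 without plate2 library 1 and 11 without HSC library 1 or 2, and in wild type it was 7 without plate2 library 1 and 7 without HSC library 2. The plate set and the gate cannot be told apart here, nor, in summed wells, more cells of a type from more RNA per cell. Beside these rises, stem cell markers stood lower in plate2 by the sums given above. Erythroid markers summed to 3699 to 4538 CPM in plate2 and 1044 to 2684 CPM in HSC libraries. Of these markers, only Car1, Car2 and Aqp1 lay above all HSC libraries in all plate2 libraries. The others overlapped, Gata1, Tfrc, Ermap and Rhag among them. The part of cell types in the rises was not tested.

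**Figure D2:**
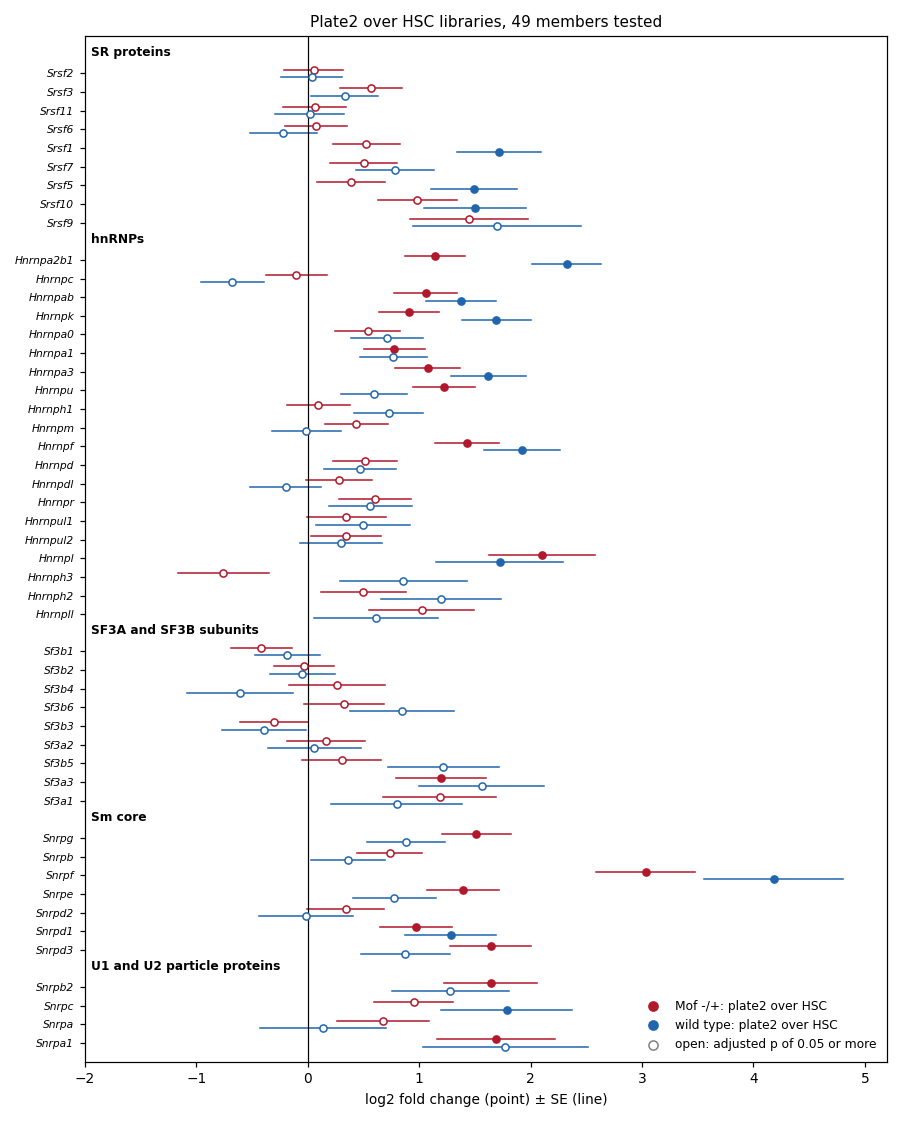
Log2 fold change of plate2 over HSC libraries (x axis; point, fitted value; line, ± SE) for the 49 tested members by role, in Mof -/+ (red) and wild type (blue). Filled points passed at an adjusted p under 0.05; all filled points lie to the right of 0, and Snrpf lies farthest right in both genotypes, at 3.03 and 4.18.

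Snrpf encodes the Sm ring protein SmF, and of the members it had the highest fold change. It stood at 281 and 344 CPM in Mof -/+ plate2 against 20.5 and 69.6 CPM in Mof -/+ HSC libraries. In wild type it stood at 316 and 292 CPM in wild type plate2 against 0 and 38.8 CPM in wild type HSC libraries. The log2 fold change was 3.03 ± 0.45 (SE) in Mof -/+ (edgeR adjusted p = 9.62e-05) and 4.18 ± 0.62 in wild type (edgeR adjusted p = 0.000111). The HSC values rest on few transcripts, 5 and 14 in Mof -/+ and 0 and 4 in wild type. Both rises passed under all 24 alternative settings, with a range of 2.35 to 4.09 in Mof -/+ and 3.25 to 10.1 in wild type; the upper end came without wild type HSC library 2, which leaves a library at 0. The gene lies on chromosome 10 from 93583029 to 93589706 on the minus strand (GRCm38), and its promoter is among those printed above.

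Of the 7 Sm genes tested, Snrpf among them, 5 passed in Mof -/+ (background 11.9% of all genes higher) and 2 in wild type (9.64%). Whether the genotypes differ in this was tested gene by gene as an interaction, in which no member passed. Snrpd1 (SmD1) was at 176 and 264 CPM in Mof -/+ plate2 against 156 and 99.5 CPM in Mof -/+ HSC libraries, and at 198 and 163 CPM in wild type plate2 against 101 and 77.6 CPM in wild type HSC libraries. Its log2 fold changes were 0.97 ± 0.32 and 1.28 ± 0.41 (edgeR adjusted p = 0.0346 in Mof -/+ and 0.0331 in wild type). Its calls held under 14 of 23 alternatives in Mof -/+ and 15 of 23 in wild type, and DESeq2 made neither. Snrpg (SmG), with the highest mean level of the Sm genes as tags not divided by length, was at 396 and 416 CPM in Mof -/+ plate2 against 184 and 139 CPM in Mof -/+ HSC libraries. That is a log2 fold change of 1.51 ± 0.31 (edgeR adjusted p = 0.0017), without overlap. In wild type, Snrpg stood at 303 and 196 CPM in plate2 against 141 and 184 CPM in HSC libraries, a log2 fold change of 0.88 ± 0.35 that did not pass (edgeR adjusted p = 0.0863). Snrpd3 and Snrpe rose in Mof -/+ by log2 values of 1.64 ± 0.37 and 1.39 ± 0.32 (edgeR adjusted p = 0.0033 and 0.0046). Snrpb (SmB), from which Snrpn is a close copy used in neurons, did not pass in Mof -/+ (0.73 ± 0.29, edgeR adjusted p = 0.0722) or in wild type (0.36 ± 0.33, edgeR adjusted p = 0.471). Snrpd2 was nearest to 0 among the Sm genes, at 192 and 190 CPM in Mof -/+ plate2 against 213 and 129 CPM in Mof -/+ HSC libraries and at 162 and 84.8 CPM in wild type plate2 against 101 and 204 CPM in wild type HSC libraries, which overlapped in both genotypes.

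Among the hnRNPs, 8 of 20 rose in Mof -/+ (background 11.9% of all genes) and 6 of 20 in wild type (9.64%). The 6 of wild type were all among the 8. Hnrnpa2b1, an A/B type protein that binds pre-mRNA and sorts RNAs for transport, had the highest mean level of all members. It was at 869 and 1019 CPM in Mof -/+ plate2 against 492 and 487 CPM in Mof -/+ HSC libraries, and at 939 and 835 CPM in wild type plate2 against 242 and 184 CPM in wild type HSC libraries. The plate2 groups were close to each other while the HSC groups lay apart, which makes the log2 fold change 1.14 ± 0.27 in Mof -/+ (edgeR adjusted p = 0.0047) and 2.32 ± 0.31 in wild type (edgeR adjusted p = 3.05e-05). The rise in Mof -/+ did not pass without plate2 library 2 (edgeR adjusted p = 0.0878). Hnrnpf, a protein of G-rich sequences, was at 454 and 477 CPM in Mof -/+ plate2 against 188 and 209 CPM in Mof -/+ HSC libraries, and at 409 and 342 CPM in wild type plate2 against 101 and 136 CPM in wild type HSC libraries. Its log2 fold changes of 1.43 ± 0.29 and 1.92 ± 0.34 (edgeR adjusted p = 0.0015 in Mof -/+ and 0.000735 in wild type) passed under all 24 alternatives. Hnrnpk, a protein of C-rich sequences, was at 545 and 571 CPM in Mof -/+ plate2 against 356 and 323 CPM in Mof -/+ HSC libraries, and at 529 and 511 CPM in wild type plate2 against 181 and 204 CPM in wild type HSC libraries. Its log2 fold changes were 0.91 ± 0.27 (edgeR adjusted p = 0.0186) in Mof -/+ and 1.69 ± 0.31 (edgeR adjusted p = 0.000831) in wild type. The call of Hnrnpk in Mof -/+ held under 18 of 24 alternatives. It was lost with library size alone, with thinned wells and without any 1 Mof -/+ library. Over the alternatives the log2 fold change of Hnrnpk in Mof -/+ ran from 0.14 to 1.01. In all 3 genes plate2 lay above HSC without overlap in both genotypes.

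Hnrnpa3 and Hnrnpab, both A/B type proteins, rose by log2 values of 1.08 ± 0.29 and 1.06 ± 0.28 in Mof -/+ (edgeR adjusted p = 0.0119 and 0.0108) and by 1.62 ± 0.34 and 1.37 ± 0.32 in wild type (edgeR adjusted p = 0.0027 and 0.0050). Hnrnpab was at 650 and 779 CPM in Mof -/+ plate2 against 475 and 308 CPM in Mof -/+ HSC libraries, and at 580 and 533 CPM in wild type plate2 against 282 and 233 CPM in wild type HSC libraries. Hnrnpa3 was at 478 and 555 CPM in Mof -/+ plate2 against 254 and 308 CPM in Mof -/+ HSC libraries, and at 421 and 443 CPM in wild type plate2 against 222 and 116 CPM in wild type HSC libraries. Plate2 was above HSC in every library of both genes within each genotype. Hnrnpl, a protein of CA repeats, was at 113 and 161 CPM in Mof -/+ plate2 against 20.5 and 54.7 CPM in Mof -/+ HSC libraries. In wild type it was at 138 and 106 CPM in plate2 against 80.6 and 9.70 CPM in HSC libraries. Its log2 fold changes were 2.10 ± 0.48 (edgeR adjusted p = 0.0037) in Mof -/+ and 1.72 ± 0.57 (edgeR adjusted p = 0.0415) in wild type, where 12 of 23 alternatives passed. Without 1 library the log2 fold change ran from 1.51 to 2.90 in Mof -/+ and from 0.93 to 3.91 in wild type. Hnrnpu, a scaffold protein of nuclear RNA and chromatin, and Hnrnpa1 passed in Mof -/+, at 1.22 ± 0.28 (edgeR adjusted p = 0.0037) and 0.78 ± 0.27 (edgeR adjusted p = 0.0431). The call of Hnrnpa1 held under 11 of 24 alternatives and was lost without any 1 of the 4 Mof -/+ libraries (fold changes of 0.66 to 0.88 over the settings without 1 library). In wild type they were at 0.59 ± 0.30 (edgeR adjusted p = 0.170) and 0.77 ± 0.30 (edgeR adjusted p = 0.0792). Hnrnpa1, Hnrnpa3 and other members have near-identical processed copies in the genome, and how the submitters assigned reads that match several copies is not given in the sources used here, so their counts are uncertain by that much.

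Hnrnpc, which binds runs of U and coats nascent RNA, was the abundant hnRNP that stood lower in plate2. It was at 484 and 520 CPM in Mof -/+ plate2 against 721 and 512 CPM in Mof -/+ HSC libraries, which overlapped, and at 457 and 398 CPM in wild type plate2 against 746 and 895 CPM in wild type HSC libraries, which did not. The log2 fold change was -0.10 ± 0.27 in Mof -/+ (edgeR adjusted p = 0.829) and -0.68 ± 0.28 in wild type (edgeR adjusted p = 0.101), so neither passed. In wild type HSC library 2, a single well held 42.2 of the 92.2 transcripts of Hnrnpc, and without the deepest well of each library the log2 fold change in wild type was -0.29 (edgeR adjusted p = 0.515). In wild type 2 other hnRNPs lay below HSC without overlap, Hnrnpdl at 204 and 236 CPM in plate2 against 252 and 349 CPM in HSC libraries (-0.20 ± 0.32) and Hnrnpm at 256 and 259 CPM in plate2 against 262 and 359 CPM in HSC libraries (-0.01 ± 0.31). Hnrnph3 was at -0.76 ± 0.41 in Mof -/+ (edgeR adjusted p = 0.192) and 0.86 ± 0.57 in wild type (edgeR adjusted p = 0.312).

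**Figure D3:**
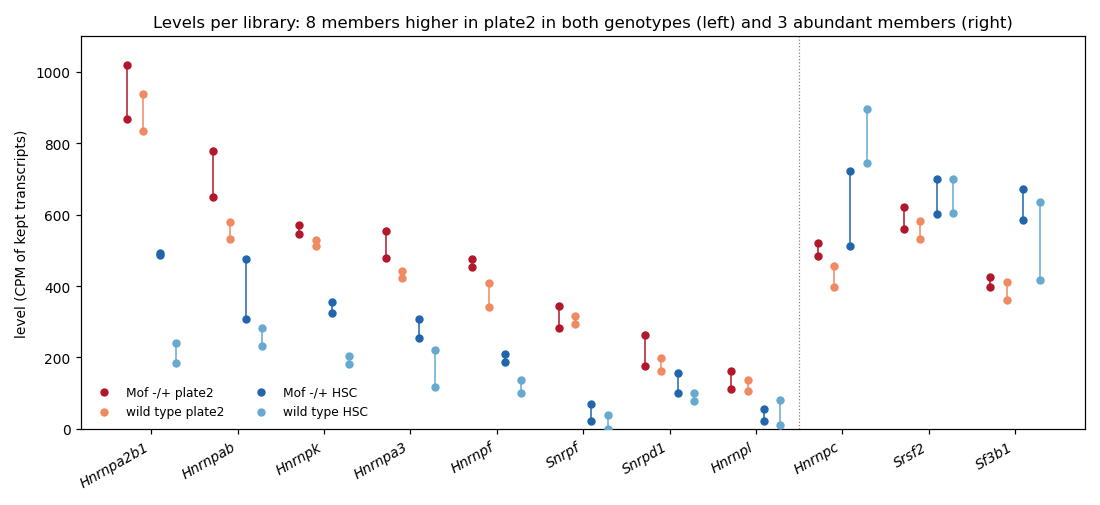
Level per library (y axis, CPM of kept transcripts) of the 8 members that rose in plate2 in both genotypes (left of the dotted line) and of 3 abundant members that did not (right). Points are libraries, joined within a group. Hnrnpa2b1 reaches 1019 CPM in a Mof -/+ plate2 library and is lowest, at 184 CPM, in a wild type HSC library. Sf3b1 within each genotype and Hnrnpc in wild type lie higher in HSC than in plate2 libraries, and Hnrnpc overlaps in Mof -/+.

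SR proteins split by genotype in the count but not in a test of the difference: 0 of 9 passed in Mof -/+, where 2 had an unadjusted p under 0.05 against 34.6% of all genes, and 3 of 9 passed in wild type, where 9.64% of all genes were called higher. Srsf1, a founding SR protein with roles in splicing and translation, was at 302 and 331 CPM in Mof -/+ plate2 against 197 and 308 CPM in Mof -/+ HSC libraries, which overlapped. In wild type it was at 279 and 349 CPM in plate2 against 141 and 87.3 CPM in HSC libraries, which did not overlap. Its log2 fold change was 0.53 ± 0.30 in Mof -/+ (edgeR adjusted p = 0.220) and 1.72 ± 0.37 in wild type (edgeR adjusted p = 0.0036). Srsf5 was at 240 and 200 CPM in wild type plate2 against 70.5 and 116 CPM in wild type HSC libraries (log2 fold change 1.49 ± 0.39, edgeR adjusted p = 0.0119). Srsf10, a repressor when dephosphorylated, was at 140 and 115 CPM in wild type plate2 against 30.2 and 77.6 CPM in wild type HSC libraries (1.50 ± 0.46, edgeR adjusted p = 0.0283). Its wild type HSC values rest on 3 and 8 transcripts. The call of Srsf10 held under 17 of 23 alternatives, and neither DESeq2 nor limma-voom made it. Srsf2, the SR protein with the highest mean level, was at 559 and 620 CPM in Mof -/+ plate2 against 701 and 602 CPM in Mof -/+ HSC libraries, and at 583 and 533 CPM in wild type plate2 against 604 and 699 CPM in wild type HSC libraries. Fitted with composition scaling, the log2 fold change of Srsf2 was 0.05 ± 0.26 in Mof -/+ (edgeR adjusted p = 0.913) and 0.03 ± 0.27 in wild type (edgeR adjusted p = 0.945), and the sign was negative with library size alone, at -0.15 and -0.21. The 95% interval of its fitted log2 difference ran from -0.49 to 0.60 in Mof -/+ and from -0.54 to 0.60 in wild type. Srsf3, an SR protein that also acts in RNA export, did not pass either, at 0.56 ± 0.28 and 0.33 ± 0.30 (edgeR adjusted p = 0.154 in Mof -/+ and 0.465 in wild type).

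Of 9 SF3A and SF3B subunits, 1 passed in Mof -/+, close to the background of 11.9% (Sf3a3, 1.20 ± 0.40, edgeR adjusted p = 0.0374, which passed under 11 of 23 alternatives). In wild type 0 passed, 2 had an unadjusted p under 0.05 against 32.4% of all genes, and DESeq2 called 0. Their median log2 fold change was 0.26 in Mof -/+ and 0.06 in wild type. Sf3b1, the large subunit that contacts the branch point, was at 397 and 425 CPM in Mof -/+ plate2 against 586 and 671 CPM in Mof -/+ HSC libraries, and at 361 and 410 CPM in wild type plate2 against 635 and 417 CPM in wild type HSC libraries. Plate2 lay below HSC without overlap in both genotypes, and the fitted log2 fold change was -0.42 ± 0.27 (edgeR adjusted p = 0.288) in Mof -/+ and -0.19 ± 0.29 (edgeR adjusted p = 0.697) in wild type. Sf3b2 was near 0, at -0.04 ± 0.27 and -0.05 ± 0.29, and Sf3b3 stood at -0.30 ± 0.31 in Mof -/+ (edgeR adjusted p = 0.512) and -0.39 ± 0.37 in wild type (edgeR adjusted p = 0.492). Sf3b4 stood at 0.27 ± 0.43 in Mof -/+ and -0.61 ± 0.47 in wild type (edgeR adjusted p = 0.697 and 0.390).

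The 4 particle proteins of U1 and U2 all had positive fold changes in both genotypes. In wild type, 52.7% of all genes had positive fold changes. The background of calls was 11.9% of all genes higher in Mof -/+ and 9.64% in wild type. Snrpb2 and Snrpa1, the B″ and A′ proteins of U2, rose in Mof -/+ by log2 values of 1.64 ± 0.42 (edgeR adjusted p = 0.0082) and 1.69 ± 0.53 (edgeR adjusted p = 0.0255). In wild type they were at 1.28 ± 0.53 (edgeR adjusted p = 0.0970) and 1.77 ± 0.74 (edgeR adjusted p = 0.102). The Mof -/+ HSC values of Snrpa1 rest on 4 and 7 transcripts. Its call in Mof -/+ held under 19 of 23 alternatives and was not made by DESeq2. Snrpc, the C protein of U1, rose in wild type at 85.8 and 54.2 CPM in plate2 against 30.2 and 19.4 CPM in HSC libraries (1.79 ± 0.59, edgeR adjusted p = 0.0390), with 3 and 2 transcripts behind the HSC values and 11 of 23 alternatives passing. Snrpa, the A protein of U1, did not pass in Mof -/+ (0.68 ± 0.41, edgeR adjusted p = 0.251) or in wild type (0.14 ± 0.57, edgeR adjusted p = 0.894).

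Other genes of the splicing pathway were counted in lists by complex, and the counts stand beside the same background of 11.9% of all genes higher in Mof -/+ and 9.64% in wild type. The shares that rose in the tri-snRNP, and in wild type in the Prp19 and the exon junction lists, were below it. Of 6 LSm ring genes tested, 4 rose and 0 fell in Mof -/+ (Lsm5 at 2.76 ± 0.75 and Lsm2 at 1.54 ± 0.43, edgeR adjusted p = 0.0126 and 0.0134), and in wild type 2 rose and 1 fell. In wild type, Lsm8 stood at a mean of 46.7 CPM in plate2 and was at 0 in both HSC libraries, at least 3.15-fold higher against a floor of 3 transcripts over the HSC group, and Lsm4 fell by 1.43 on the log2 scale. Such floors, and the counting intervals given below, take in counting error alone. Libraries of a group differed by more than that, so these limits are too tight. Among 10 genes of early branch point recognition, 2 rose and 0 fell in Mof -/+ and 2 rose and 2 fell in wild type. Dhx15, a helicase of spliceosome disassembly, was among those that rose in both, at 1.49 ± 0.35 (edgeR adjusted p = 0.0052) and 2.28 ± 0.49 (edgeR adjusted p = 0.0031), and in wild type Puf60 and Phf5a, a small SF3B subunit outside the name rule, fell by 1.15 and 1.53. Of 9 U1 and minor particle partners, 2 rose in wild type (Luc7l3 at 1.19 ± 0.30 and Luc7l2 at 1.07 ± 0.37) and 0 fell. Of 16 genes of the U4/U6.U5 tri-snRNP, 1 rose in each genotype, Snrnp40 (1.82 ± 0.50) in Mof -/+ and Sart1 (3.50 ± 0.95) in wild type. Sart1 rests on 58 transcripts in plate2 and 1 in HSC libraries of wild type, a ratio of 10.1 with a 95% counting interval (Clopper-Pearson) of 1.75 to 407. Of 18 Prp19 and step factors, 4 rose in Mof -/+ (Bcas2 at 1.53 ± 0.39 and Bud31 at 2.14 ± 0.61 first by p) and 1 in wild type (Bud31, at 0 in both HSC libraries and at least 2.52-fold higher in plate2 against the same floor).

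Of 14 genes of the exon junction complex and RNA export, 2 rose and 0 fell in Mof -/+ and 1 rose and 2 fell in wild type. For this and the other lists, the background in Mof -/+ was 11.9% of all genes higher and 10.3% lower. In wild type it was 9.64% higher and 8.13% lower. Alyref, an export adaptor, rose in both, at 2.57 ± 0.44 (edgeR adjusted p = 0.0004) in Mof -/+ and 3.28 ± 0.76 (edgeR adjusted p = 0.0052) in wild type, on 97 transcripts in plate2 and 2 in HSC libraries there (ratio 8.47, counting interval 2.28 to 70.9), while Ddx39b, the helicase that works with it, fell by 0.97 in wild type. Of 18 SR-related proteins and kinases, 3 rose in Mof -/+ and 4 in wild type and 0 fell, with Srrm1 in both (1.38 ± 0.30 and 1.31 ± 0.35). Of 28 other regulators of splice site choice, 8 rose and 3 fell in Mof -/+ and 7 rose and 1 fell in wild type. Ptbp1, a repressor of many exons, rose at 2.35 ± 0.52 (edgeR adjusted p = 0.0031) in Mof -/+ and 4.16 ± 0.87 (edgeR adjusted p = 0.0026) in wild type, with 89 transcripts in plate2 and 1 in HSC libraries of wild type (ratio 15.5, counting interval 2.72 to 620). Cirbp, a cold-induced RNA-binding protein, fell by 1.97 and 2.45. The lists' medians ran from -0.07 (branch point recognition) to 1.30 (LSm ring) in Mof -/+ and from -0.32 (branch point recognition) to 0.995 (Prp19 and step factors) in wild type, against 0.04 and 0.08 over all genes. Setting genes at 0 in HSC libraries to the floor left these list medians as they were.

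Genotypes were compared within each plate set and over both, which asks what losing 1 copy of Mof changes in these genes. No member passed in any of these comparisons with edgeR, with DESeq2 or with limma-voom. In plate2 libraries 0 of 49 members passed against a background of 0.553% of all genes, and 0 members had an unadjusted p under 0.05 against 5.05% of all genes. In HSC libraries 0 of 49 passed against 0.0149%, and 5 had an unadjusted p under 0.05 against 10.8% of all genes. Over both sets 0 of 49 passed against 0.135%, and 1 had an unadjusted p under 0.05 against 5.96% of all genes. The difference between the 2 genotype effects passed for 0 members and for 0% of all genes, with 4 members at an unadjusted p under 0.05 against 9.07% of all genes. Median log2 fold changes of Mof -/+ over wild type were 0.04 over the members and 0.00 over all genes in plate2, and 0.17 and 0.03 in HSC libraries.

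**Figure D4:**
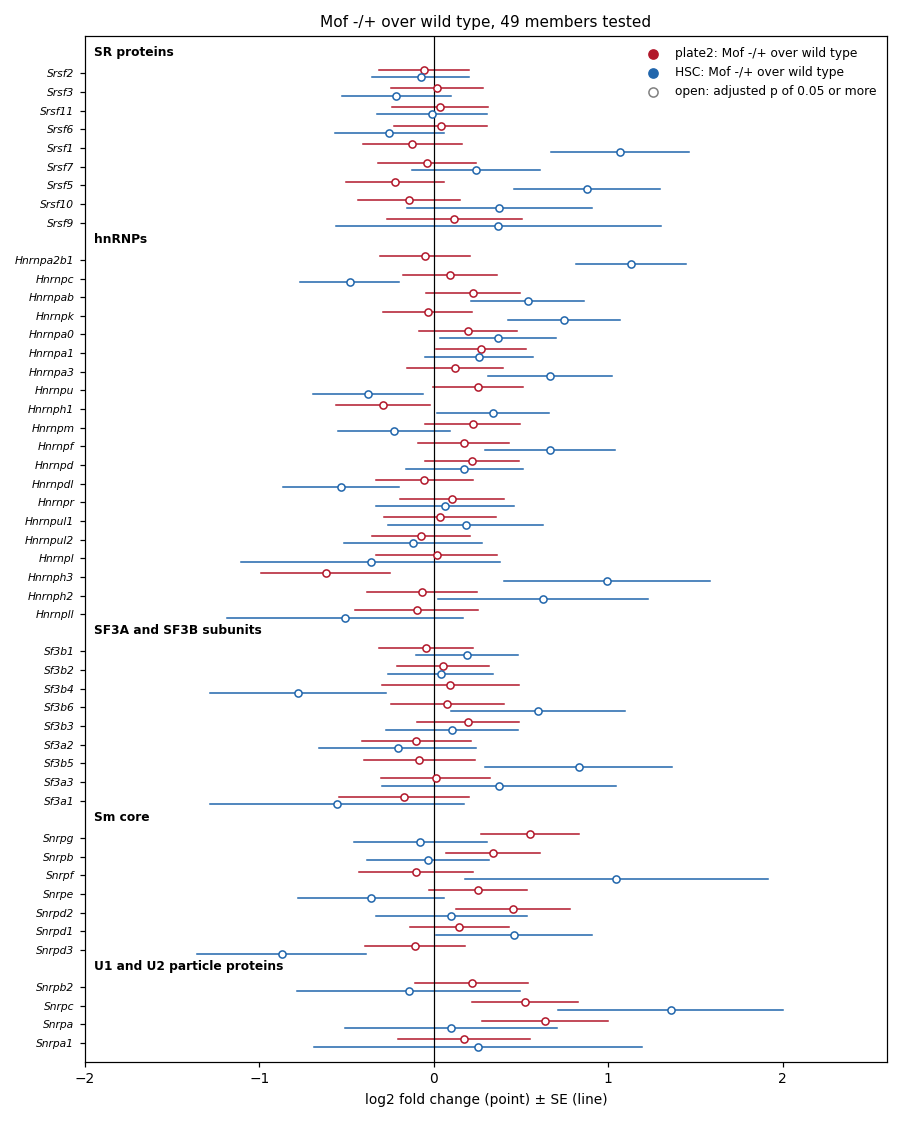
Log2 fold change of Mof -/+ over wild type (x axis; point, fitted value; line, ± SE) for the 49 tested members by role, in plate2 (red) and HSC libraries (blue). All points are open, since none passed at an adjusted p under 0.05; plate2 values lie between -0.62 and 0.64, HSC values between -0.87 and 1.36.

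The member with the smallest p between genotypes was Hnrnpa2b1 in HSC libraries. At 492 and 487 CPM in Mof -/+ HSC against 242 and 184 CPM in wild type HSC libraries the groups did not overlap, and the log2 fold change was 1.13 ± 0.31 with an unadjusted p of 0.0017 (edgeR adjusted p = 0.213). In plate2, at 869 and 1019 CPM in Mof -/+ against 939 and 835 CPM in wild type, the log2 fold change was -0.05 ± 0.26 (edgeR adjusted p = 0.997). The difference of the effects, plate2 minus HSC, was -1.18 ± 0.41 (edgeR adjusted p = 0.427). Srsf1 and Hnrnpk followed in HSC libraries, at 1.07 ± 0.39 (edgeR adjusted p = 0.352) and 0.75 ± 0.32 (edgeR adjusted p = 0.404). Srsf1 was at 197 and 308 CPM in Mof -/+ HSC against 141 and 87.3 CPM in wild type HSC libraries. On the lower side in HSC libraries were Snrpd3 (-0.87 ± 0.48), Hnrnpc (-0.48 ± 0.29) and Hnrnpdl (-0.53 ± 0.33), with edgeR adjusted p from 0.521 to 0.588. In plate2 the smallest p values were those of Snrpg (0.55 ± 0.28, edgeR adjusted p = 0.973), Snrpa (0.64 ± 0.36) and Snrpc (0.52 ± 0.30) above, and of Hnrnph3 (-0.62 ± 0.37), Hnrnph1 (-0.29 ± 0.27) and Srsf5 (-0.22 ± 0.28) below. Over both sets Snrpc stood at 0.69 ± 0.29 (edgeR adjusted p = 0.773) and Hnrnpab at 0.36 ± 0.22 (edgeR adjusted p = 0.946). In the difference of effects, Srsf1 (-1.19 ± 0.49) and Hnrnph3 (-1.61 ± 0.69) were lowest by p after Hnrnpa2b1, and Hnrnpu (0.63), Hnrnpc (0.57) and Sf3b4 (0.87) stood on the positive side. Hnrnpc and Hnrnpu were the 2 members whose genotypes were free of overlap in opposite directions in the plate sets. The share of all genes with this pattern was not counted. Of all genes, 30.6% lay above wild type without overlap in plate2 and 14.1% below in HSC libraries. Hnrnpu was at 470 and 506 CPM in Mof -/+ plate2 against 404 and 342 CPM in wild type plate2, and at 246 and 234 CPM in Mof -/+ HSC against 292 and 301 CPM in wild type HSC libraries. The difference of the effects did not pass for Hnrnpu (± 0.41 SE, edgeR adjusted p = 0.654) or for Hnrnpc (± 0.39 SE, edgeR adjusted p = 0.682).

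In raw CPM, 22 of 49 members lay above wild type without overlap in Mof -/+ plate2 libraries (background 30.6%) and 1 lay below (13.2%), and in HSC libraries 11 lay above (23.1%) and 3 below (14.1%). Predicted gene models named Gm and a number took 11.5% and 9.35% of transcripts in Mof -/+ plate2 against 17.9% and 21.3% in wild type plate2 libraries. With these models left out of the total, the members' summed share was 1.46% and 1.56% in Mof -/+ plate2 against 1.46% and 1.44% in wild type plate2, where the groups overlapped, and 1.12% and 1.07% in Mof -/+ HSC against 0.95% and 0.98% in wild type HSC libraries, where they did not. In wells of at least 2000 transcripts, with these models kept, the HSC groups did overlap. Their shares there were 1.06% and 0.98% in Mof -/+ against 0.91% and 1.03% in wild type. Mature neutrophil markers summed to 381 and 114 CPM in Mof -/+ plate2 against 2714 and 2155 CPM in wild type plate2, and to 1132 and 2132 CPM in Mof -/+ HSC against 5390 and 38.8 CPM in wild type HSC libraries. In plate2, stem cell markers summed to 633 and 633 CPM in Mof -/+ against 781 and 1152 CPM in wild type libraries. Neutrophil progenitor markers summed to 4741 and 2986 CPM in Mof -/+ plate2 against 2652 and 644 CPM in wild type plate2. Erythroid markers summed to 4241 and 4538 CPM in Mof -/+ plate2 against 3699 and 3718 CPM in wild type plate2. The part of cell types in the genotype values was not tested. The 8 pathway lists had 0 genes past the threshold in each genotype comparison, with the lowest edgeR adjusted p at 0.272, in the LSm ring in HSC libraries.

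Over single wells the members' share varied more than between groups. Median shares were 1.14% and 1.28% in Mof -/+ plate2, 1.16% and 1.10% in wild type plate2, 0.85% and 0.94% in Mof -/+ HSC and 0.88% and 0.71% in wild type HSC wells. The highest well reached 1.93% and the lowest was at 0%, both in plate2. Plate2 wells of 2000 to 5000 transcripts had lower shares than the rest, with median shares of 0.15% and 0.69% in Mof -/+ (3 and 4 wells) and 0.17% and 0.18% in wild type (7 and 7 wells). Median Gm model shares there were 72.3% and 12.4% in Mof -/+ and 58.9% and 55.0% in wild type. Without wells that had at least 25% of transcripts in such models, the summed share was 1.35% and 1.42% in Mof -/+ plate2, 1.37% and 1.32% in wild type plate2, 1.06% and 0.99% in Mof -/+ HSC and 0.89% and 0.94% in wild type HSC libraries. In wells of 1000 to 2000 transcripts, a median of 9.5 and 9 members was seen in Mof -/+ plate2, 12 and 12 in wild type plate2, 9 and 10 in Mof -/+ HSC and 8 and 8 in wild type HSC libraries. Over all libraries together, the largest share of a tested member's transcripts from 1 well was 5.75%, for Snrpa1, though in single shallow libraries 1 well could hold far more, as given for Hnrnpc.

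**Figure D5:**
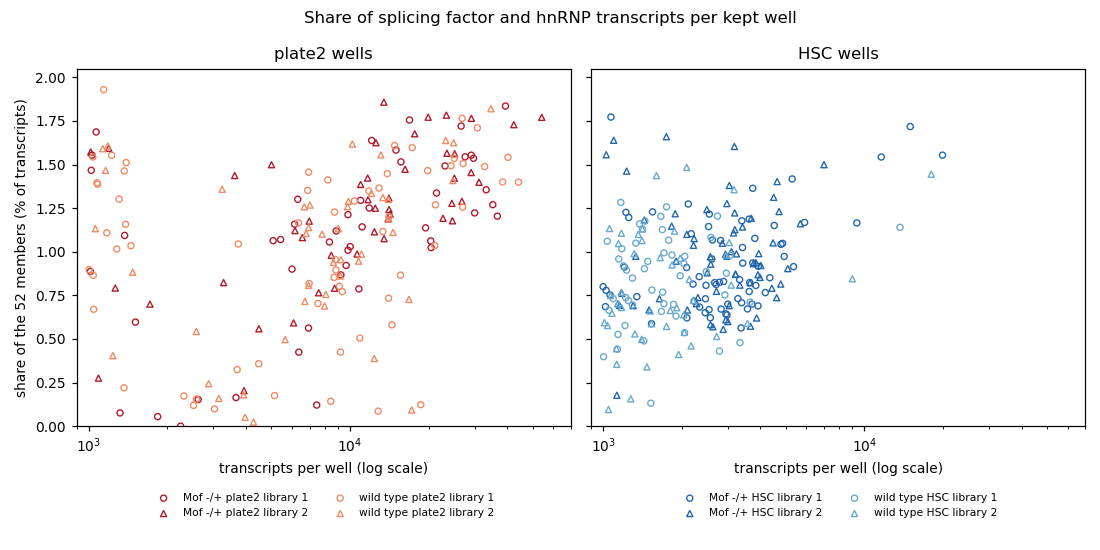
Share of a well's transcripts in the 52 members (y axis, %) against transcripts per well (x axis, log scale), for plate2 wells (left) and HSC wells (right), each point a kept well. Plate2 wells reach deeper and higher, up to 1.93%, and include a group of wells near 0 between 2000 and 5000 transcripts.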

How the data were processed

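The deposited values are expected counts, estimated transcripts per gene and barcode from CEL-Seq2; by their values each equals a whole number of molecular identifiers corrected for 4096 possible identifiers, and they are not scaled. Per the submitters' processing notes, reads went through BWA 0.6.2-r126 and mm10 was the build. Which annotation, filters and counter they used is not given in the sources used here. Wells with at least 1000 transcripts were kept (436), no doublet caller was run on sorted wells, and counts were summed per library and rounded. The 70 spike-in rows stayed out, and 0% of rows named no gene. Replicates differed beyond counting error (chi-square per degree of freedom 2.20 to 4.48).

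Tests used edgeR 4.0.16 in R 4.3.3 (TMM, filterByExpr, quasi-likelihood, two-sided), a layout of the 4 groups for plate2 against HSC, for genotype in each set and for the difference, and plate set as a term over both sets. CPM carry no TMM factors and count 3′ tags, which are not divided by length. Coordinates are from GENCODE vM21, which held all 52 members, promoters from RefSeq (GRCm38.p6). DESeq2 1.42.0 and limma 3.58.1 gave alternatives, and Python 3.11.15 with numpy 2.4.6, pandas 2.3.3 and matplotlib 3.10.9 the tables and figures.

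The titles and file names of the wild type plate2 libraries give opposite library numbers; both name wild type plate2, so only the numbering within that pair is in doubt. Titles were followed. Members and lists were chosen with earlier results of these data known. Named are, for each comparison, all members that passed (up to 8 per side by size), otherwise the 3 of smallest p per side, and the 2 of highest level per role; of pathway lists, up to 2 that passed by p. The rule also asked for protein sequences, for which promoters stand here. A few other genes and members were named after their values were seen. The result of 1 list in Mof -/+ is not reported here.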

Additional observations from a re-analysis of the deposited data

How the results depend on the processing

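No genotype comparison had a member past the threshold under any alternative run. The number of members higher in plate2 stood at 16 in Mof -/+ and 12 in wild type and moved by over 1.5 times to 20 in wild type with all barcodes and to 4 in Mof -/+ with wells thinned to 1000 transcripts, where 965 genes were tested. In wild type the number was 8 with DESeq2, with limma-voom and with thinned wells. In Mof -/+ it was 12 with DESeq2 and 18 with limma-voom. Leaving out each library gave 3 to 18 in Mof -/+ and 7 to 12 in wild type. Over all genes, the number past the threshold ranged from 250 to 1986 (1481 as reported) in Mof -/+ and from 307 to 1830 (1189) in wild type for plate2 against HSC, from 0 to 75 (37) for genotype in plate2, from 0 to 40 (1) in HSC, from 1 to 64 (9) over both sets and from 0 to 37 (0) for the difference. With the HSC replicate number as a block, 19 members passed in Mof -/+ and 13 in wild type, and 0 in each genotype comparison; the plate2 titles carry no shared number, and the HSC libraries' deviations correlated at -0.13 over 2689 genes, so nothing shows that the numbers pair the samples. A crossed block gave 20 in Mof -/+ and 17 in wild type, of which 1 was lower in plate2. The crossed block, leaving out each library's deepest well and leaving out Gm-rich wells were chosen after seeing the data. The median log2 fold change of the members moved by less than the median SE of a member in all 140 alternative values. That is a wide yardstick for a median over many genes, so the check could hardly show a change. For plate2 against HSC in wild type the median was 0.42 with thinned wells (0.78 as reported). For genotype in plate2 it was 0.17 without Mof -/+ plate2 library 1 and -0.043 without library 2 (0.04 as reported). For genotype in HSC it was 0.36 without the deepest wells (0.17 as reported). Of 1656 alternative values of named members, 1512 kept direction and call, 104 lost the call, 14 gained it and 26 reversed.

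The reversed log2 values were as follows. For genotype, with thinned wells, Hnrnph1 in plate2 was 0.046 and Hnrnpab over both sets -0.054, and Hnrnpc over both sets was 0.048 without the deepest wells. For plate2 against HSC in Mof -/+, thinned wells gave 0.046 for Hnrnpc, -0.47 for Srsf2 and -0.37 for Srsf3, no low-count filter 0.060 for Sf3b2, and library size alone -0.15 for Srsf2. For plate2 against HSC in wild type, at least 2000 transcripts per well gave 0.13 for Sf3b1 and -0.034 for Srsf2, and Srsf2 was -0.21 with library size alone, -0.10 with all barcodes and -0.11 with thinned wells. Sf3b2 was 0.10 without a low-count filter, 0.041 with all barcodes, 0.013 without neutrophil-marked wells and 0.049 without Gm-rich wells. Leaving out each library gave ranges across 0 for Hnrnpc between genotypes over both sets (-0.26 to 0.00081). For plate2 against HSC the ranges were -0.34 to 0.16 for Hnrnpc, -0.19 to 0.12 for Sf3b2 and -0.063 to 0.16 for Srsf2 in Mof -/+, and -0.41 to 0.17 for Sf3b1, -0.060 to 0.044 for Sf3b2 and -0.040 to 0.20 for Srsf2 in wild type. The cause was not tested. Depth limits the HSC libraries most: 3 transcripts were 12.3 and 14.9 CPM in the Mof -/+ and 30.2 and 29.1 CPM in the wild type HSC libraries.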

Other observations

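Across the wells of a library, the members' share went with the share of 14 cycling genes in plate2 libraries, with a Spearman rho of 0.69 and 0.65 in Mof -/+ (48 and 46 wells) and 0.73 and 0.75 in wild type (65 and 45 wells). In HSC libraries rho was 0.28 and 0.27 in Mof -/+ (68 and 68 wells) and -0.00 and 0.43 in wild type (50 and 46 wells). Against the share of Gm models, rho was -0.74 and -0.66 in Mof -/+ plate2, -0.66 and -0.67 in wild type plate2, -0.27 and -0.19 in Mof -/+ HSC and -0.28 and -0.43 in wild type HSC libraries. Against transcripts per well it was 0.51 and 0.54 in Mof -/+ plate2 and 0.26 and 0.32 in wild type plate2 libraries. The shares have the same total in their denominator and the wells share a library, so these are descriptions without a test. Summed over libraries, cycling genes stood at 2149 and 2815 CPM in Mof -/+ plate2, 2698 and 2115 CPM in wild type plate2, 2046 and 646 CPM in Mof -/+ HSC and 1048 and 1962 CPM in wild type HSC libraries, so plate2 lay above HSC in each genotype, and the libraries of an HSC group differed from each other by more than those of a plate2 group. Their part in the rise of hnRNP and Sm genes was not tested.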
